A study of Homo sapiens with 15 samples.

Results

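The LCE1 genes, LCE1A to LCE1F, are 6 neighbouring genes of the late cornified envelope family on human chromosome 1. They were taken as the rows of a table of raw read counts whose Ensembl identifiers carry these symbols, 6 of 60670 genes kept, and all 6 had rows. They were chosen because LCE1 transcripts are far higher in senescent than in cycling cells of this series, so that difference is described here with no test. Of the 6 genes, 4 (LCE1B, LCE1C, LCE1E and LCE1F) passed the filter on low counts and could be tested for other effects. LCE1A and LCE1D had at most 5 counts in any library and failed it.

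The cells were HT-1080, an established human fibrosarcoma line, and RNA was measured by sequencing of stranded mRNA libraries. The libraries formed 5 groups of 3. The control group was cycling cells given the vehicle DMSO, with the time label 6 h. In the other 4 groups the cells were senescent, after 6 days of expressing dominant negative TRF2, a telomere protein whose loss of function uncaps telomeres. They then received DMSO for 6 h, 1 uM GNF-7 for 6 h, DMSO for 24 h or 1 uM GNF-7 for 24 h. GNF-7 inhibits tyrosine kinases, and the title of the study describes it as an activator of the stress kinase GCN2 in senescent cells. No cycling cells treated with GNF-7 are among these groups, so the effect of GNF-7 can be read in senescent cells only. All cells were grown at reduced oxygen in medium with tetracycline-free serum. The labels call the libraries biological replicates and name no separate cultures, so p-values measure the spread between these libraries.

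Late cornified envelope proteins are small, rich in cysteine and glycine, and are made by keratinocytes late in their differentiation. Transglutaminases cross-link them to loricrin, involucrin and small proline-rich proteins to form the cornified envelope, the insoluble shell of the outermost cells of the epidermis. Their genes lie with those of the other envelope proteins in the epidermal differentiation complex, and a mesenchymal tumour line is not a tissue in which the envelope is built.

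The coding sequences of the LCE1 genes are near copies of each other, which bears on how reads are assigned to them. The following lines give the first 60 coding bases of each gene on GRCh38, from the start codon, with capitals where a base differs from LCE1B, the member with the highest level.
LCE1B: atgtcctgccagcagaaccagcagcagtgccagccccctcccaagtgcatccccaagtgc
LCE1C: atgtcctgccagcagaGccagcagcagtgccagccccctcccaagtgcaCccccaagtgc
LCE1A: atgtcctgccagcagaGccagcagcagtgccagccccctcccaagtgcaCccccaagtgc
LCE1D: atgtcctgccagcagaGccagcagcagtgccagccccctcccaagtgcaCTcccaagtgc
LCE1E: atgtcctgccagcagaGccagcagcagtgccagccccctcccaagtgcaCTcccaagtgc
LCE1F: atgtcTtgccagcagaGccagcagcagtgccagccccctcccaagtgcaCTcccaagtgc
LCE1A and LCE1C are identical over this stretch, as are LCE1D and LCE1E. Over the whole coding sequence (330 to 354 bases), identity between members ranged from 85.9% to 96.0% over 15 pairs, with LCE1B and LCE1C the closest pair. Of all 50-base windows in the annotated transcripts, those found exactly in another gene made up 22.6% for LCE1C, 19.9% for LCE1D, 18.2% for LCE1A, 11.2% for LCE1E, 5.96% for LCE1B and 5.19% for LCE1F. For windows of 100 bases the shares were at most 1.57%. How reads that match several genes were counted is not given in the sources used here, so the low counts of LCE1A, LCE1C and LCE1D in particular are uncertain.

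The sequences before the transcription starts are shown to print which stretches the members have in common there. RefSeq (GRCh38.p14) gave a start for 5 of the 6 genes, without LCE1B. The next lines give the bases just before the start of LCE1C, LCE1D, LCE1E and LCE1F, 150 bases for each except LCE1E, where they stop at an annotated transcript. Capitals mark the 2 runs of at least 12 bases that all 4 promoters hold, of which the LCE1E line shows only the longer.
LCE1C (chr1:152806652-152806801, minus strand): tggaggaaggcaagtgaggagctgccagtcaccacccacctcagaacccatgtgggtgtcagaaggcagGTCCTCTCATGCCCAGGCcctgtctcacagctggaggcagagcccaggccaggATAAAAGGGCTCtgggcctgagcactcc
LCE1D (chr1:152796571-152796720, plus strand): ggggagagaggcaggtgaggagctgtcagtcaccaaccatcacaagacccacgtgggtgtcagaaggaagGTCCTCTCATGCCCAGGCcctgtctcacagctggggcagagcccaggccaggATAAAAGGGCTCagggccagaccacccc
LCE1E (chr1:152786107-152786213, plus strand): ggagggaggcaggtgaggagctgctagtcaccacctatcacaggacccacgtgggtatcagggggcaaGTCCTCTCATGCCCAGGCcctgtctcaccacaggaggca
LCE1F (chr1:152774990-152775139, plus strand): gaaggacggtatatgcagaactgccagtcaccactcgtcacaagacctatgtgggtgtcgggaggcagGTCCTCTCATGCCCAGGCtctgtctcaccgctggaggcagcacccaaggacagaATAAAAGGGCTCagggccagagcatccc
The run of 18 bases begins 80 to 82 bases before the start and is in 4 of 27305 RefSeq promoters (0.0146%), which are these 4. The run of 12 bases, a TATA-like stretch, begins 28 bases before the start in all 4 and is in 6 promoters (0.022%). In LCE1E this run lies within the span of the annotated transcript at which the printed line stops. LCE1A, whose listed start is its first coding base, has neither run. Aligned over the 250 bases before the start, the 4 promoters were 67.4% to 74.4% identical to each other and 40% to 46.8% identical to that of LCE1A.

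Motifs were searched on both strands of the 250 bases before each start, which for LCE1E include part of an annotated transcript. The AP-1 motif TGACTCA (4.38% of all promoters) and the ATF4/CHOP composite motif TGATGCAA (0.835%) were in none of the 5. TATAAA, in 11.4% of all promoters, was in LCE1A and LCE1E, and ATAAAAGGG, which overlaps it in part, was in LCE1C, LCE1D, LCE1E and LCE1F (0.352%). These matches describe the letters and show no binding.

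Library totals ranged from 25991007 to 32323393 counts. Mitochondrial genes took different shares of the counts by group, 3.75% to 5.01% in cycling cells, 11.2% to 12.4% in senescent vehicle and 13.2% to 15.3% in senescent GNF-7 cells at 6 h, and 15.1% to 18.7% and 22.6% to 24.1% at 24 h. The number of genes with a count was 22093 to 22395 in cycling cells and 24916 to 26774 in senescent cells. Of 10 keratinocyte markers, KRT1 and DSG1 were at 0 in all 15 libraries, 7 others had at most 13 counts in any library (KRT5 and KRT14 at most 6), and only KRT10 passed the filter. In the cycling group 7 of the 10 were at 0, in both senescent vehicle groups 5 and in both GNF-7 groups 2, and the part of such low counts in the LCE1 levels was not tested. The summed level of the 10 markers, nearly all of it KRT10, overlapped between all groups (37.1 to 43.4 CPM in cycling and 40.2 to 44.3 CPM in senescent vehicle cells at 6 h, and 37.1 to 51.9 CPM over all libraries), and KRT10 was not called in any comparison. CPM is the count scaled to a common library size, in the usual unit of the field. The summed mesenchymal markers, vimentin among them, were between 6544 and 9683 CPM in every library, and all 8 fell with GNF-7 at 24 h, as did 29.7% of all genes tested.

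LCE1 transcripts were near zero in cycling cells and were read in every senescent library. The 3 cycling libraries held 3, 8 and 3 counts of the 6 genes together, 14 in all, and the 3 senescent vehicle libraries at 6 h held 895. Summed over the genes, the level was 0.165 ± 0.0965 CPM (SD, n = 3) in the cycling group, against 9.87 ± 0.465 CPM in the senescent vehicle group at 6 h. The ratio of the means was 59.6, with a 95% exact counting interval of 35.3 to 109, which covers counting error only. Cycling replicate 2 held 8 of the 14 counts, and without it the ratio was 91.0. In bulk RNA, more cells that make a transcript and more transcript in each cell cannot be told apart.

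LCE1B (ENSG00000196734, GRCh38 chromosome 1, 152811971 to 152813109, plus strand, 1 exon) had the highest level. Its counts were 0, 4 and 1 in cycling cells, 204, 199 and 157 in senescent vehicle cells and 250, 261 and 314 in GNF-7 cells at 6 h, 176, 182 and 182 in vehicle at 24 h and 390, 420 and 378 in GNF-7 at 24 h. Each senescent library was above each cycling library, and each GNF-7 library above each vehicle library of its time. The ratio of senescent to cycling vehicle cells at 6 h was 104 (interval 44.5 to 323) and rose to 342 without cycling replicate 2.

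LCE1E (ENSG00000186226, 152786214 to 152788426, plus strand) came next. Its annotation holds 6 distinct exon entries pooled over its transcripts, which can overlap. Its counts were 0, 4 and 1 in cycling cells, 84, 62 and 93 in senescent vehicle and 129, 122 and 110 in GNF-7 cells at 6 h, then 80, 92 and 70 in vehicle and 132, 138 and 158 in GNF-7 cells at 24 h. The order of the groups was that of LCE1B, again without overlap between GNF-7 and vehicle at either time. Its senescent to cycling ratio was 44.6 (18.8 to 138), and 146 without cycling replicate 2.

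LCE1F (ENSG00000240386, 152776372 to 152776728, plus strand, 1 exon) and LCE1C (ENSG00000197084, 152804835 to 152806628, minus strand) were read at low levels. For LCE1C the annotation holds 4 distinct exon entries pooled over its transcripts. LCE1F had 0, 0 and 1 counts in cycling cells, 12, 23 and 23 in senescent vehicle and 21, 13 and 29 in GNF-7 cells at 6 h, and 21, 30 and 14 in vehicle and 51, 51 and 40 in GNF-7 cells at 24 h. Its GNF-7 and vehicle libraries overlapped at 6 h and not at 24 h. LCE1C had 3, 0 and 0 counts in cycling cells, 11, 13 and 14 in senescent vehicle and 18, 16 and 21 in GNF-7 cells at 6 h, and 7, 15 and 15 in vehicle and 29, 43 and 27 in GNF-7 cells at 24 h. The ratios of senescent to cycling vehicle cells rested on few cycling counts, at 54.1 for LCE1F (interval 9.33 to 2172, from 1 against 58 counts) and 11.8 for LCE1C (3.75 to 59.8, from 3 against 38 counts). Without cycling replicate 2 they were 35.4 for LCE1F and 7.73 for LCE1C, without cycling replicate 3 LCE1C was at 7.50, and without the only cycling library with a count neither gene has a ratio. For each of the 4 genes all 3 senescent vehicle libraries were above all 3 cycling ones, as for 36.1% of the 18563 genes tested, a count from which nothing is read here because the genes were chosen by it.

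LCE1D (ENSG00000172155, 152796751 to 152798181, plus strand, 2 exons) and LCE1A (ENSG00000186844, 152827473 to 152827894, plus strand, 1 exon) were at or near zero throughout. Both had 0 counts in all cycling and all vehicle libraries, where a count of 0 allows up to 3 counts in a library. LCE1D had 4, 3 and 0 counts in GNF-7 cells at 6 h and 5, 0 and 1 at 24 h. LCE1A had 0, 4 and 0 counts at 6 h and 4, 0 and 0 at 24 h. These few counts lay in GNF-7 libraries only and were not tested, and both genes share more of their 50-base windows with other genes than LCE1B, LCE1E or LCE1F.

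**Figure D1:**
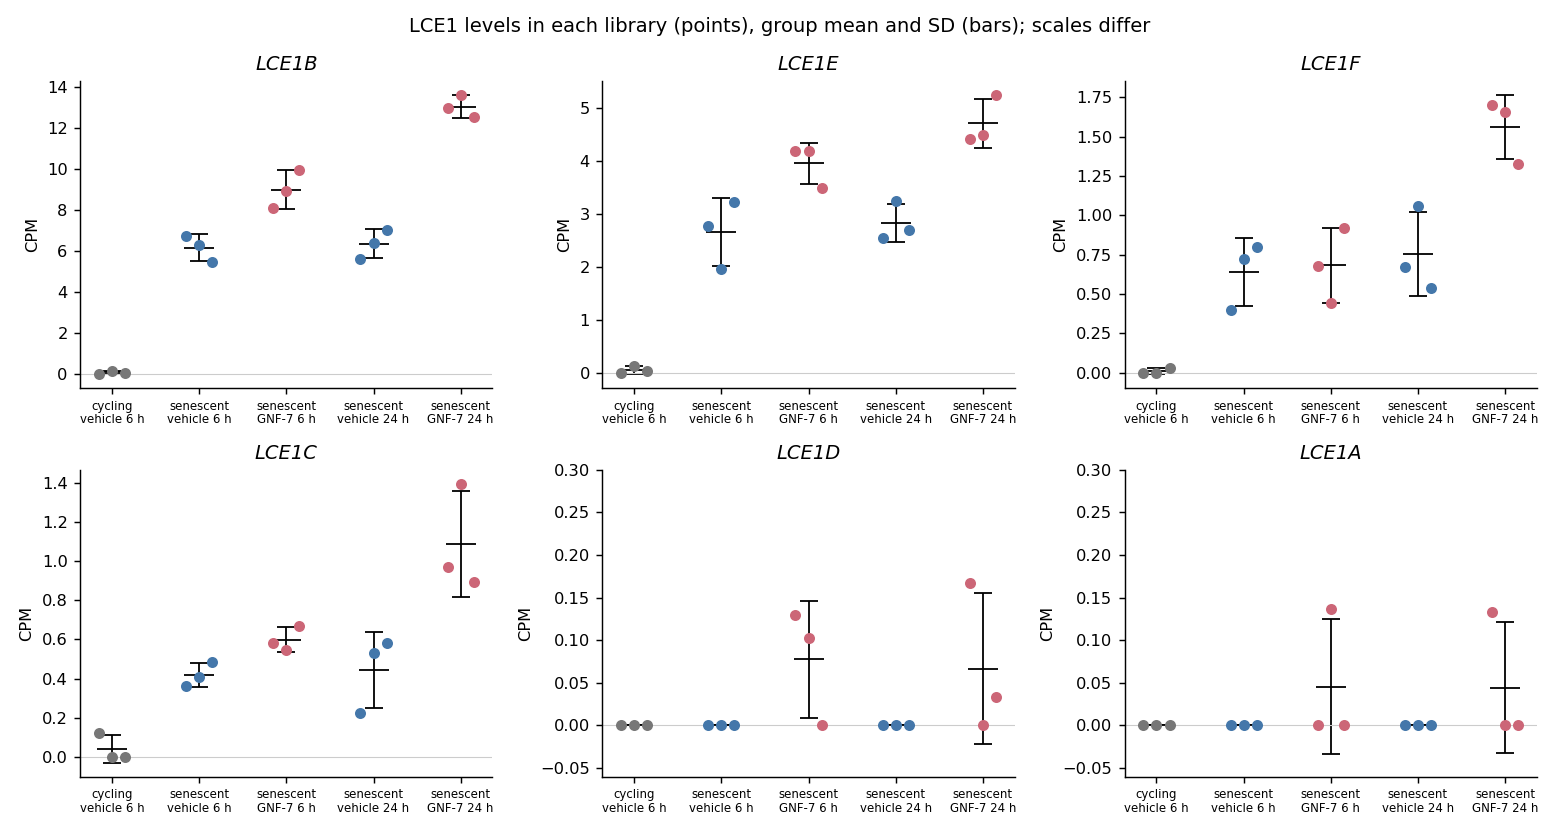
Level of each LCE1 gene in CPM (y axis, with a scale of its own per gene) in the 15 libraries (points) by group (x axis), with the group mean and SD over 3 libraries (horizontal and vertical bars). The cycling libraries lie at or near 0 for every gene, LCE1B reaches 13.1 CPM in GNF-7 cells at 24 h, and LCE1D and LCE1A have counts in GNF-7 libraries only.

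The contrast at 24 h compared GNF-7 with vehicle in senescent cells, with libraries that are not part of the contrast by which the genes were chosen. Earlier results of these data were known when the genes were chosen, so the choice may not be independent of this contrast. LCE1B rose from 6.35 ± 0.715 to 13.1 ± 0.546 CPM (SD, n = 3; log2 fold change 1.04, SE 0.13, edgeR adjusted p 1.44e-10). LCE1E rose from 2.83 ± 0.363 to 4.71 ± 0.463 CPM (log2 fold change 0.73, SE 0.19, edgeR adjusted p 0.000766). LCE1F rose from 0.756 ± 0.269 to 1.56 ± 0.204 CPM (1.04, SE 0.37, edgeR adjusted p 0.0133) and LCE1C from 0.444 ± 0.193 to 1.09 ± 0.270 CPM (1.30, SE 0.45, edgeR adjusted p 0.0109). All 4 genes that passed the filter were called higher at an adjusted p under 0.05, in a contrast that called 29.3% of all genes higher and 29.7% lower. All 4 also had 3 GNF-7 libraries above 3 vehicle libraries, as had 32.2% of all genes. The median log2 fold change of the 4 was 1.04, beside 0.04 for all genes tested and a 90th percentile of 1.12.

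Single libraries decided the calls of the less abundant members at 24 h. The call of LCE1C was lost without vehicle 24 h replicate 1 (0.96, edgeR adjusted p 0.104) and, in another fit, without GNF-7 24 h replicate 2 (1.08, adjusted p 0.0807), and that of LCE1F without vehicle 24 h replicate 3 (0.85, adjusted p 0.0684). The calls of LCE1B and LCE1E were kept in every fit that left out 1 library, with log2 fold changes of 0.95 to 1.12 and 0.65 to 0.84. The mitochondrial share was higher in the GNF-7 libraries. With mitochondrial genes left out of the scaling the log2 fold changes at 24 h were 1.03 for LCE1B, 0.72 for LCE1E, 1.03 for LCE1F and 1.29 for LCE1C.

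After 6 h of GNF-7 the most abundant members were already higher. LCE1B rose from 6.16 ± 0.663 to 9.01 ± 0.945 CPM (log2 fold change 0.55, SE 0.13, edgeR adjusted p 0.000441). LCE1E rose from 2.65 ± 0.643 to 3.95 ± 0.393 CPM (0.58, SE 0.19, edgeR adjusted p 0.0134), a call that was lost without senescent vehicle 6 h replicate 2 (0.39, adjusted p 0.15) and without GNF-7 6 h replicate 1 (0.53, adjusted p 0.0501). LCE1C was at 0.420 ± 0.0612 and 0.600 ± 0.0615 CPM (0.51, SE 0.47, edgeR adjusted p 0.423). LCE1F was at 0.640 ± 0.213 and 0.683 ± 0.238 CPM (0.10, SE 0.40, edgeR adjusted p 0.877), and its sign turned without replicate 1 of senescent vehicle (-0.15) and without replicate 3 of GNF-7 at that time (-0.18). Thus 2 of the 4 genes tested were called higher, where 17.9% of all genes were called higher and 21.4% lower. For 3 of the 4 the GNF-7 libraries lay above the vehicle libraries without overlap (22.6% of all genes), LCE1C included. The vehicle libraries at 6 h also took part in the choice of the genes. With mitochondrial genes left out of the scaling LCE1B was at 0.55 and LCE1E at 0.58.

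The difference of the GNF-7 effects, 24 h minus 6 h, was tested as an interaction. LCE1B had a log2 difference of 0.50 (SE 0.18, edgeR adjusted p 0.0303), and it was the 1 member called of 4 tested, where 12.8% of all genes were called higher and 18.0% lower. The interaction uses the senescent vehicle libraries at 6 h, which also took part in the choice of the genes. The call rested on single libraries. It was lost without replicate 1 or 2 of senescent vehicle at 6 h, replicate 1 of GNF-7 at 6 h, replicate 1 of vehicle at 24 h, or replicate 2 of GNF-7 at 24 h, with differences of 0.41 to 0.48 and adjusted p between 0.0601 and 0.112. LCE1F (0.94, SE 0.55), LCE1C (0.79, SE 0.66) and LCE1E (0.16, SE 0.27) were not called, with edgeR adjusted p of 0.205, 0.407 and 0.733.

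Without GNF-7 the LCE1 level did not move measurably between 6 h and 24 h of vehicle. LCE1B had a log2 fold change of 0.04 (SE 0.14), LCE1C of 0.06 (SE 0.50), LCE1E of 0.10 (SE 0.20) and LCE1F of 0.24 (SE 0.40), with edgeR adjusted p between 0.746 and 0.957. For none of the 4 did the libraries at 24 h lie above those at 6 h without overlap, as they did for 16.6% of all genes. None of the 4 was called in edgeR or in any other fit tried, none had an unadjusted p under 0.05, and 9.26% of all genes were called higher and 9.29% lower in this contrast. The standard errors leave changes of LCE1C and LCE1F of the size seen with GNF-7 undetected at this depth. The comparisons of GNF-7 with vehicle share their vehicle libraries with this contrast.

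**Figure D2:**
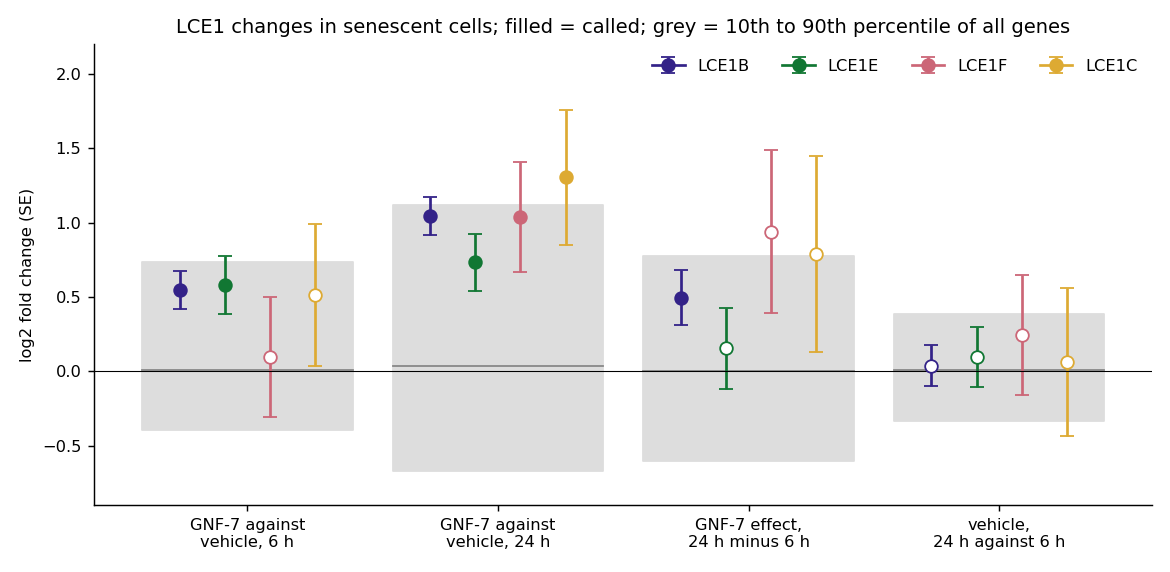
Log2 fold change with its standard error (y axis) of the 4 LCE1 genes tested in 4 comparisons within senescent cells (x axis), with filled circles for genes called at an adjusted p under 0.05 and open circles for the others. Grey boxes span the 10th to the 90th percentile of all 18563 genes with a line at their median, and all 4 genes are filled at 24 h of GNF-7 against 2 at 6 h and none for vehicle over time.

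Ordered by the summed level of the 6 genes, the groups ran from cycling cells at 0.165 CPM to senescent vehicle at 6 h (9.87 ± 0.465) and 24 h (10.4 ± 1.17), GNF-7 at 6 h (14.4 ± 0.702) and GNF-7 at 24 h (20.5 ± 0.573 CPM; SD, n = 3 each). The libraries of the 2 senescent vehicle groups overlapped (9.37 to 10.3 and 9.05 to 11.2 CPM). Neighbouring groups elsewhere in this order did not overlap, GNF-7 at 6 h ranging from 13.7 to 15.1 and at 24 h from 20.04 to 21.2 CPM. LCE1B gave 62.4 ± 6.73% of the LCE1 counts in vehicle and 62.6 ± 3.51% in GNF-7 cells at 6 h, 61.3 ± 3.91% in vehicle and 63.6 ± 0.937% in GNF-7 cells at 24 h. The difference at 6 h is smaller than either SD. At 24 h it is smaller than the SD of vehicle and larger than that of GNF-7, and neither was tested. LCE1E gave 26.8 ± 5.77% in vehicle and 27.6 ± 3.90% in GNF-7 cells at 6 h, and 27.3 ± 2.10% in vehicle and 23.0 ± 2.77% in GNF-7 cells at 24 h. The last difference is larger than either SD and was not tested.

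Levels of different genes were compared per length, as CPM per kilobase of annotated exon (GENCODE 29). In senescent vehicle cells at 6 h LCE1B was at 5.41 ± 0.582, LCE1E at 2.04 ± 0.495, LCE1F at 1.79 ± 0.598 and LCE1C at 0.607 ± 0.0885 CPM per kilobase. LCE1B lay above all others and LCE1C below them, and LCE1E and LCE1F did not differ beyond their spread. In GNF-7 cells at 24 h the values were 11.5 ± 0.479 for LCE1B, 4.37 ± 0.572 for LCE1F, 3.63 ± 0.357 for LCE1E and 1.57 ± 0.390 for LCE1C. The value of LCE1F depends on the annotation, since GENCODE 29 lists its coding part only (357 bases) and RefSeq places its start farther upstream.

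The genes around the LCE1 genes were mostly silent. The 6 genes span 152776372 to 152827894 (51.5 kb) and overlap no other annotated gene on either strand. Within 100 kb on each side lie 12 other genes, all of them in the table, of which 5 had no count in any library, among them LCE4A and LCE6A. IVL, which encodes the envelope protein involucrin and lies on the far side of LCE1A, was the highest of the 12, with at most 163 counts in a library, and rose in senescence from 0.765 ± 0.134 to 2.73 ± 0.227 CPM (log2 fold change 1.84, edgeR adjusted p 1.14e-09). With GNF-7 IVL was not called at 6 h (0.003, edgeR adjusted p 0.992) or at 24 h (-0.29, adjusted p 0.166). In vehicle it was higher at 24 h than at 6 h (0.77, edgeR adjusted p 0.00192). LCE2A summed to 12 counts over the cycling and 32 over the senescent vehicle libraries at 6 h, and SMCP to 0 and 13. C1orf68 summed to 0 counts in cycling cells, 5 and 17 in senescent vehicle and GNF-7 cells at 6 h, and 8 and 16 at 24 h. KPRP, the gene next to LCE1F, summed to 7 counts in cycling cells and at most 3 in any senescent group. LCE1B was the highest of the 18 genes in every senescent group and IVL the highest in cycling cells. The genes next to the cluster on either side, KPRP and LCE6A, were at or near zero.

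**Figure D3:**
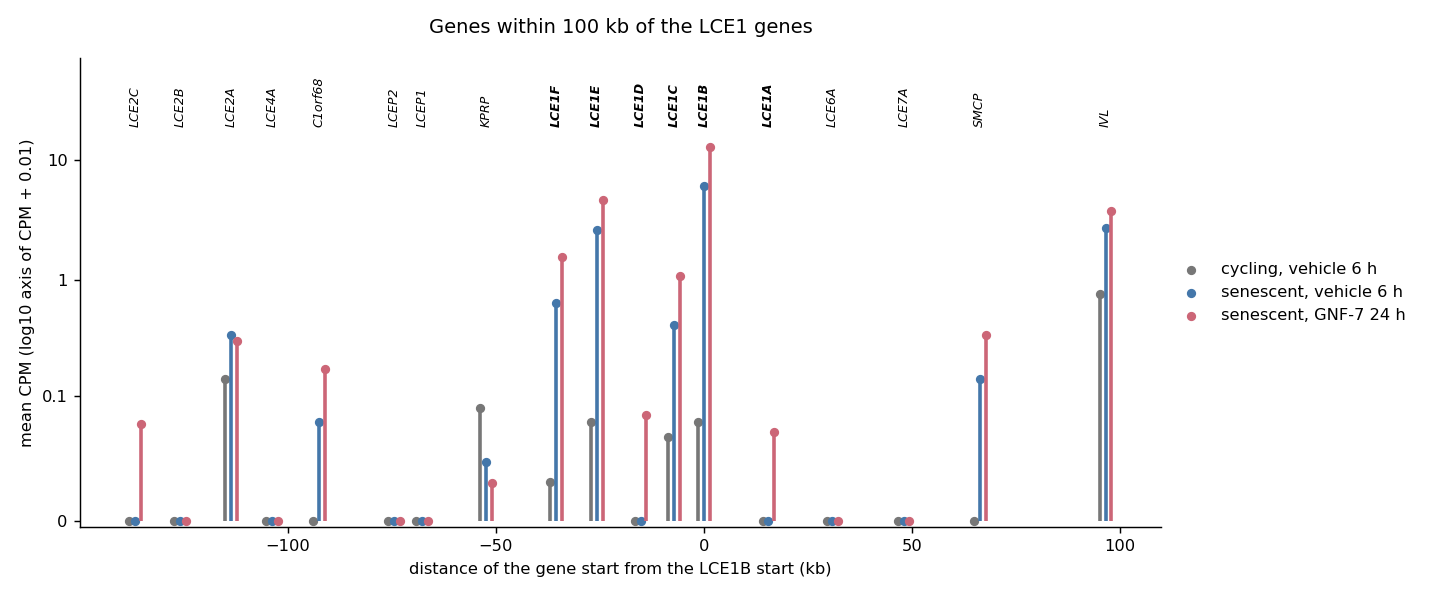
Mean level in CPM over 3 libraries (y axis, log10 axis of CPM plus 0.01) of the 18 genes within 100 kb of the LCE1 genes, at the distance of each gene's start from that of LCE1B (x axis, kb), in 3 groups (colours; the stems of a gene are set slightly apart). LCE1 names are in bold, and LCE1B stands highest in both senescent groups drawn and IVL in cycling cells, while LCE4A, LCE6A, LCE7A and both LCE pseudogenes are at 0.

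Other genes of the cornified envelope were compared by lists. Of 12 other LCE genes 3 had no count in any library and 2, LCE2A and LCE3D, passed the filter. LCE3D had 0 counts in each cycling library and 2 to 9 in senescent vehicle cells at 6 h and was called higher, in a contrast that called 35.6% of all genes higher and 34.4% lower. Neither gene was called for GNF-7. The table held 27 other genes of the epidermal differentiation complex. Of these, 6 were tested, and 4 rose and 1 fell in senescence (median log2 fold change 2.46, beside 0.06 for all genes tested). A gene near zero in cycling cells passes the filter through senescent libraries only, as did LCE3D, SMCP, SPRR2D and PRR9. The calls and the median in senescence are thus partly set by the filter, and no support is drawn from them. PRR9, a proline-rich gene of the complex, rose from 0.0938 ± 0.0119 to 0.833 ± 0.239 CPM (3.08, edgeR adjusted p 3.38e-07). Under GNF-7 at 24 h 2 of the 6 rose and 1 fell, beside 29.3% and 29.7% of all genes. Of the 2, PRR9 was not called without vehicle 24 h replicate 3 (0.84, edgeR adjusted p 0.0501). SPRR2D, a small proline-rich envelope protein, rose from 0.311 ± 0.117 to 5.83 ± 0.522 CPM (4.24, SE 0.31, edgeR adjusted p 7.36e-19), while FLG, the filaggrin gene, fell from 0.724 ± 0.231 to 0.176 ± 0.0210 CPM (-2.02, edgeR adjusted p 0.000366). SPRR2D had 6 to 11 counts in a vehicle library at 24 h and 157 to 188 in a GNF-7 library. It passed the filter through GNF-7 libraries, in which it is high, and no support is drawn from its call or from the count of 2. FLG overlaps a gene on the other strand.

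Of 15 genes of the cornification machinery, which hold enzymes, a lipid transporter and structural proteins such as desmoplakin (DSP), 9 were tested. In senescence 7 rose (35.6% of all genes tested), with a median log2 fold change of 1.66 beside 0.06 for all genes, and under GNF-7 at 24 h 4 rose (29.3% of all genes), with a median of 0.37 beside 0.04. ABCA12, ALOX12B and KLK5 had 14, 12 and 0 counts summed over the cycling libraries and passed the filter through senescent libraries only. For KLK5 these were the GNF-7 libraries at 24 h, with 11 to 13 counts against at most 6 in any other library. The count of 7 and both medians are thus partly set by the filter, and no support is drawn from them. ABCA12, the lipid transporter of lamellar granules, rose in senescence from 0.175 ± 0.132 to 3.93 ± 0.0771 CPM (4.53, edgeR adjusted p 6.63e-21, and 5.23 without cycling replicate 1), and the lipoxygenase ALOXE3 from 1.82 ± 0.281 to 6.77 ± 0.891 CPM (1.90, adjusted p 7.90e-17). TGM1, a transglutaminase that cross-links envelope proteins, rose under GNF-7 at 24 h from 2.63 ± 0.507 to 4.78 ± 0.559 CPM (0.86, edgeR adjusted p 0.000153). The count of 4 fell to 2 without replicate 1 or 3 of the vehicle libraries at 24 h, or replicate 3 of GNF-7 at 24 h. Of 8 epidermal transcription factors tested, 4 rose and 1 fell in senescence, where 35.6% of all genes rose and 34.4% fell. Among those that rose, GRHL3, MAF and OVOL1 had 12, 5 and 0 counts summed over the cycling libraries. They too passed the filter through senescent libraries only. GRHL3 was among those that rose, from 0.143 ± 0.156 to 0.690 ± 0.149 CPM (2.25, edgeR adjusted p 0.000192, but 3.56 without cycling replicate 2 and 1.62 without cycling replicate 3). At 24 h of GNF-7 OVOL1 rose from 0.0895 ± 0.0778 to 1.38 ± 0.155 CPM (3.84, edgeR adjusted p 2.41e-07) and PRDM1 fell (-1.42, adjusted p 0.00804), the latter not without vehicle 24 h replicate 2 (-0.99, adjusted p 0.109). OVOL1 had 0 to 4 counts in a vehicle library at 24 h and 38 to 48 in a GNF-7 library. It passed the filter through the GNF-7 libraries at 24 h, the group in which it is high, and no support is drawn from its call. ABCA12, GRHL3, OVOL1 and PRDM1 overlap genes on the other strand. Of 10 S100 genes of the same region, which encode calcium-binding proteins, 2 rose and 7 fell in senescence (34.4% of all genes fell), and 6 fell under GNF-7 at 24 h (29.7% of all genes).

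**Figure D4:**
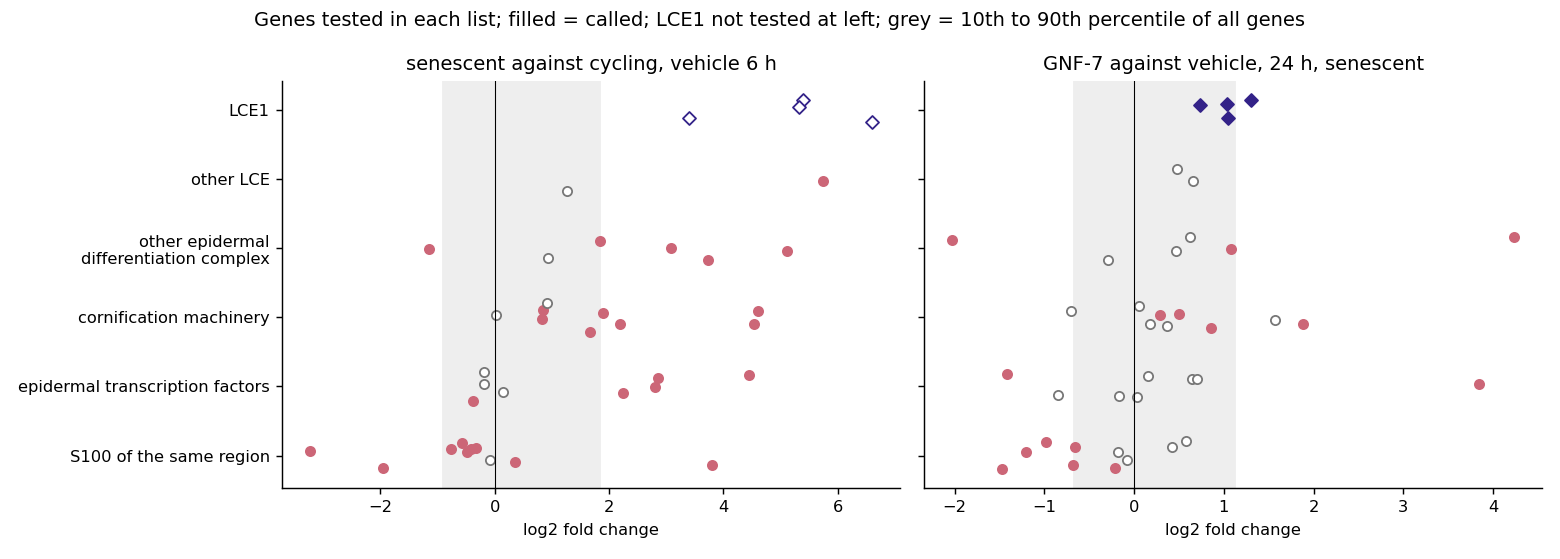
Log2 fold change (x axis) of each gene tested in 6 lists (rows), in senescence (left) and for GNF-7 at 24 h (right), filled where called at an adjusted p under 0.05, with a grey band from the 10th to the 90th percentile of all genes tested. The LCE1 genes (diamonds) are shown open at left because they were chosen from that contrast and not tested in it, and at right they lie between 0.73 and 1.30, with SPRR2D at 4.24 as the highest point. SPRR2D passed the filter through GNF-7 libraries.

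The genes whose pattern was most like that of the summed LCE1 level were found by Pearson's r of log2(CPM + 0.5) over the 15 libraries, among 14219 genes with a symbol and a mean of at least 1 CPM. Named here are 5 of the 6 with the highest r, OPCML (r 0.998), PCLO (0.997), LINC02154 (0.995), SPATA18 (0.995) and ZNF841 (0.995). OPCML, a cell adhesion gene, was at 0.0975 ± 0.0883 CPM in cycling cells, 5.53 ± 0.197 in senescent vehicle and 7.98 ± 0.514 in GNF-7 cells at 6 h, and 6.06 ± 0.313 in vehicle and 11.3 ± 0.582 CPM in GNF-7 cells at 24 h. SPATA18, a gene of mitochondrial quality control, was at 11.2 ± 0.536 CPM in cycling cells, 40.4 ± 1.11 and 49.4 ± 3.22 in vehicle and GNF-7 at 6 h, and 41.5 ± 2.27 and 59.99 ± 1.98 CPM at 24 h. These correlations are descriptions, since all points share the step between cycling and senescent cells and the libraries' scaling, and 11.4% of the genes compared reached an r of at least 0.9. OPCML, PCLO and ZNF841 overlap other genes.

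**Figure D5:**
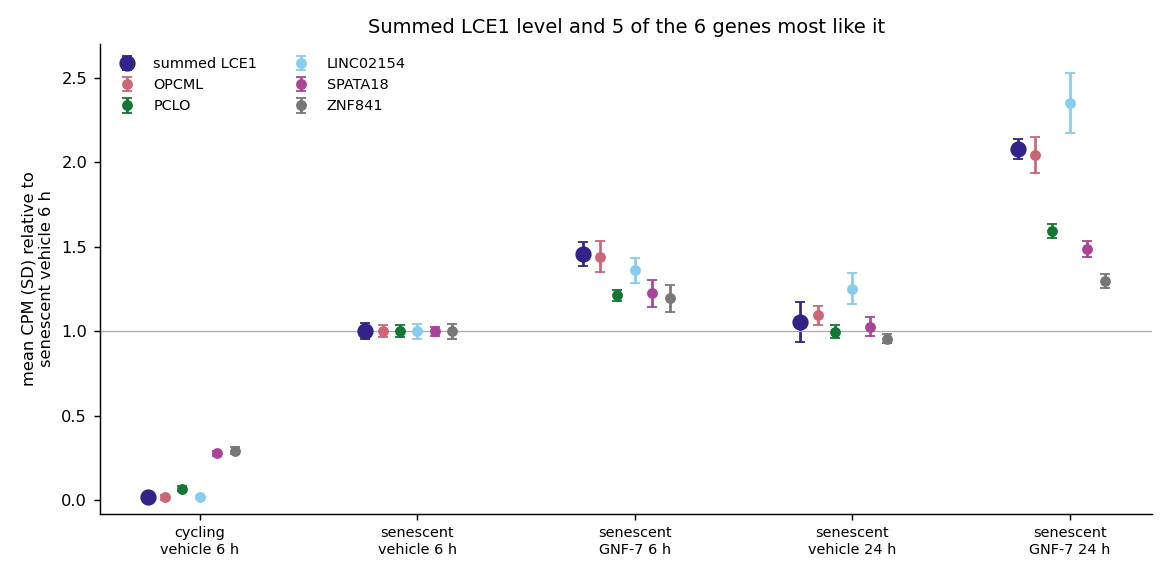
Mean level in CPM divided by that in senescent vehicle cells at 6 h (y axis, with SD over 3 libraries) of the summed LCE1 genes and 5 of the 6 genes with the highest r, by group (x axis). Each of them is lowest in cycling cells and highest in GNF-7 cells at 24 h, and OPCML lies closest to the LCE1 sum.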

How the data were processed

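RNA sequencing of 15 HT-1080 libraries was analysed from 1 table in which the authors deposited raw read counts per Ensembl gene, without normalization. The submitters' processing notes name bcl2fastq 2.20.0.422, STAR 2.7.9a, featureCounts 1.5.1 and GRCh38. The annotation release, strand setting and treatment of reads that match several genes are not given in the sources used here. Coordinates, exon lengths and coding sequences are from GENCODE 29. Of 60673 rows 3 were left out, 1 entry broken over 3 lines. Symbols were found for 60400 of 60670 identifiers, and 23229 genes had no count.

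Counts were tested with edgeR 4.0.16 (R 4.3.3) by the quasi-likelihood test with robust estimates, after filterByExpr (18563 genes) and TMM scaling, in 1 fit over 5 groups. P-values were adjusted by Benjamini-Hochberg over all genes tested, and a gene was called under 0.05. CPM used TMM-scaled library sizes, SD is over 3 libraries, and SE is the log2 fold change divided by the square root of F. Intervals of ratios are exact binomial at 95%. Pairs of libraries within groups differed by more than sampling noise (chi-square per degree of freedom 3.02 to 12.7). The code was tested on simulated counts.

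The LCE1 genes and all lists were chosen with earlier results of these data known. Named were all LCE1 genes, in other lists some of the 3 called members with the smallest p in a contrast, and genes among the 6 most like the LCE1 sum. Some genes, 1 list and 1 motif are not reported here. Alternatives were RLE and total-count scaling, mitochondrial genes left out of the scaling, the table unfiltered or filtered at a mean of 1 CPM, DESeq2 1.42.0, limma voom (3.58.1), a fit restricted to the compared groups, a replicate block and leaving out each library. Motifs and identities were computed with Python 3.11.15 and Biopython 1.88, figures with matplotlib 3.10.9.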

Additional observations from a re-analysis of the deposited data

Results flagged for a closer look

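The effect of GNF-7 on LCE1B differed between the times, by a log2 difference of 0.50 (24 h minus 6 h) in the interaction test (edgeR adjusted p 0.0303, and 0.0177 to 0.112 over the alternatives). The senescent vehicle libraries at 6 h in this test also took part in the choice of the gene. The call was lost in 5 of the fits that left out 1 library. All 3 GNF-7 libraries lay above all 3 vehicle libraries at each time, as for 22.6% of all genes at 6 h and 32.2% at 24 h. That order does not bear on a difference between the times.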

How the results depend on the processing

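The number of LCE1 genes called higher with GNF-7 at 24 h was 2 in place of 4 when genes under a mean of 1 CPM were removed, which tests neither LCE1C nor LCE1F, and was 3 to 4 when single libraries were left out. At 6 h it was 1 to 2, and for the difference 24 h minus 6 h 0 to 1. In vehicle over time no gene was called, and directions turned: with total counts LCE1B was at -0.071, LCE1C at -0.049 and LCE1E at -0.012 (the median of all genes moved from 0.006 to -0.102 with it), with limma voom LCE1C was at -0.052, without senescent vehicle 6 h replicate 1 LCE1C at -0.027 and LCE1F at -0.0041, without replicate 2 LCE1E at -0.083 and without replicate 3 LCE1B at -0.039. Without vehicle 24 h replicate 2 LCE1C was at -0.093, LCE1E at -0.0086 and LCE1F at -0.069, and without replicate 3 LCE1B at -0.037 and LCE1C at -0.17. LCE1F at 6 h of GNF-7 was at -0.15 and -0.18 without senescent vehicle 6 h replicate 1 and GNF-7 6 h replicate 3, and the LCE1E difference between the times at -0.0084 without senescent vehicle 6 h replicate 3. Leaving out single libraries gave up to 0.34 for LCE1F at 6 h of GNF-7, up to 0.33 for LCE1E between the times, and in vehicle over time up to 0.13 for LCE1B, 0.40 for LCE1C, 0.26 for LCE1E and 0.43 for LCE1F. The cause of these turns was not tested.

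Libraries of the same replicate number had low correlations of their deviations (12 values between -0.042 and 0.099). Of 15 libraries, 8 were closest to a library of their own number in another group. Whether that exceeds chance was not tested, so a weak pairing is not excluded. With the replicate block 4 LCE1 genes were called at 24 h and 2 at 6 h, as without it, 11031 in place of 10939 genes were called at 24 h, and LCE1B stayed at 1.04. Depth limits LCE1A and LCE1D, with at most 5 counts in a library, and the ratios to cycling cells, which rest on 14 counts and ranged from 48.2 to 91.0 for the 6 genes together over the alternatives, the highest without cycling replicate 2.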
